A study of Sus scrofa with 20 samples.

Results

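The HOX genes of the pig were examined in RNA-seq libraries of backfat and liver, arranged by cluster and by paralog number, which is the position a gene shares with its counterparts in the other clusters. The members were all genes of the count table whose Ensembl symbol was HOX, a letter from A to D and a number, with antisense genes left out. They came to 34 of the 31907 genes in the table, with 8 members in HOXA, 9 in HOXB, 9 in HOXC and 8 in HOXD. RefSeq has models of HOXA4, HOXA6, HOXA13 and HOXD13, but the table of names paired no Ensembl identifier with these symbols and they were not analysed here. The study compared backfat, the subcutaneous fat of the back, with liver in Nanchukmacdon, a Korean pig breed. The RNA-seq consisted of 5 backfat and 5 liver libraries from boars whose labels give an age of 22 months, a wild-type genotype and a normal disease state for both tissues, so that no group carried a treatment. The study's methods give a higher average age than the labels and describe 5 boars as the source of both tissues. The columns of both tissues bear the numbers 65, 67, 69, 71 and 72, and libraries are named by tissue and number, with values always listed in that order.

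HOX genes encode transcription factors that bind DNA through a homeodomain and give cells of the embryo their position along the body axis. Within a cluster the genes lie in the order in which they are used: low paralog numbers act toward the head, high numbers toward the tail and the ends of the limbs. Cells of mesodermal origin, fibroblasts and fat cell precursors among them, are known to keep a HOX pattern of their place of origin in the adult, and fat depots are known to differ in it. On Sscrofa11.1 the members spanned 91.8 kb on chromosome 18 for HOXA, 165.7 kb on chromosome 12 for HOXB, 117.2 kb on chromosome 5 for HOXC and 89.1 kb on chromosome 15 for HOXD. RefSeq had models for 32 of the 34 members, all but HOXB4 and HOXD4.

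The homeobox, the stretch of 180 bases that encodes the homeodomain of 60 residues, lay within 1 coding exon in all 32 models. Between members of the same paralog number the homeoboxes were identical at a median of 80.6% of bases (70.6 to 91.7% over 26 pairs), and between members that shared neither number nor cluster at a median of 61.1% (48.9 to 86.7% over 357 pairs). The longest run of bases shared by any 2 homeoboxes was 42. The homeobox of HOXA5 is shown because its level varied most in CPM among the backfat libraries. It lies on Sscrofa11.1 at chr18:45431911-45432090 (plus strand), and the capitals mark the codons of the conserved motif in the recognition helix that was used to find the homeoboxes.
HOXA5: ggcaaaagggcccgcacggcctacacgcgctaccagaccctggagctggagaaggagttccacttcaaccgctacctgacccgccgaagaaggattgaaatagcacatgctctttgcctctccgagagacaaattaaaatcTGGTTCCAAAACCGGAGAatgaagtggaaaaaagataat

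Levels are in CPM, counts relative to library size, scaled by the TMM factors of edgeR, and where genes are compared with each other they are CPM per kb of exon. The libraries held 43820042 to 61772737 counted fragments. Hepatocyte markers summed to 171 to 604 CPM in backfat and 31646 to 123512 CPM in liver, and adipocyte markers to 13104 to 16655 CPM in backfat and 42.2 to 72.9 CPM in liver, so that each tissue carried the markers of its label. A pair of libraries stood apart and is followed below: liver 67, with 44.5% of its counts in mitochondrial genes against 6.38 to 20.2% in the other livers, and backfat 69, with the 604 CPM of hepatocyte markers against 171 to 216 CPM in the other backfats. Each of these markers was highest in backfat 69 among the backfats. APOA1 made up most of every backfat sum, at 482 CPM in backfat 69 and 167 to 213 CPM in the others. The rest rose more: ALB measured 36.4 CPM there against 0.126 to 0.351, AHSG 32.2 against 0 to 0.0858, and TF 27.5 against 1.53 to 1.66. In bulk tissue, fewer cells of a type and less RNA per cell cannot be told apart.

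Backfat held more HOX RNA than liver. Of the 9 HOXC members 8 had at least 1 count in backfat and 4 in liver, and of the 8 HOXD members 7 and 5, while HOXA had 7 and 6 and HOXB 7 and 7. These numbers rest in part on single reads and have no share over all genes beside them. In backfat HOXC11 and HOXC12 had 2 counts each, and HOXC13 and HOXD11 had 1 each. The 4 HOXC members with liver reads had 2 or 3 counts each in that tissue. The level summed over the 34 members was 77.4 ± 22.9 CPM per kb in backfat and 9.41 ± 4.24 CPM per kb in liver (mean ± SD, n = 5 each), 8.23 times as much. The ratio depended on scaling, and was 14.1 with library size alone and 19.0 in TPM. The 5 backfat libraries lay between 58.4 and 114 CPM per kb and the 5 livers between 5.34 and 15.1, with no overlap. In both tissues HOXB3 was the member with the highest mean per length, at 13.7 ± 2.62 CPM per kb in backfat and 3.78 ± 1.98 CPM per kb in liver. Next in backfat came HOXA5 (9.22 ± 8.71), HOXD8 (8.94 ± 1.90) and HOXB2 (6.72 ± 1.99), whose ranges overlapped one another. Next in liver came HOXB2 (2.35 ± 1.17), HOXB4 (0.699 ± 0.0930) and HOXA3 (0.396 ± 0.119).

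**Figure D1:**
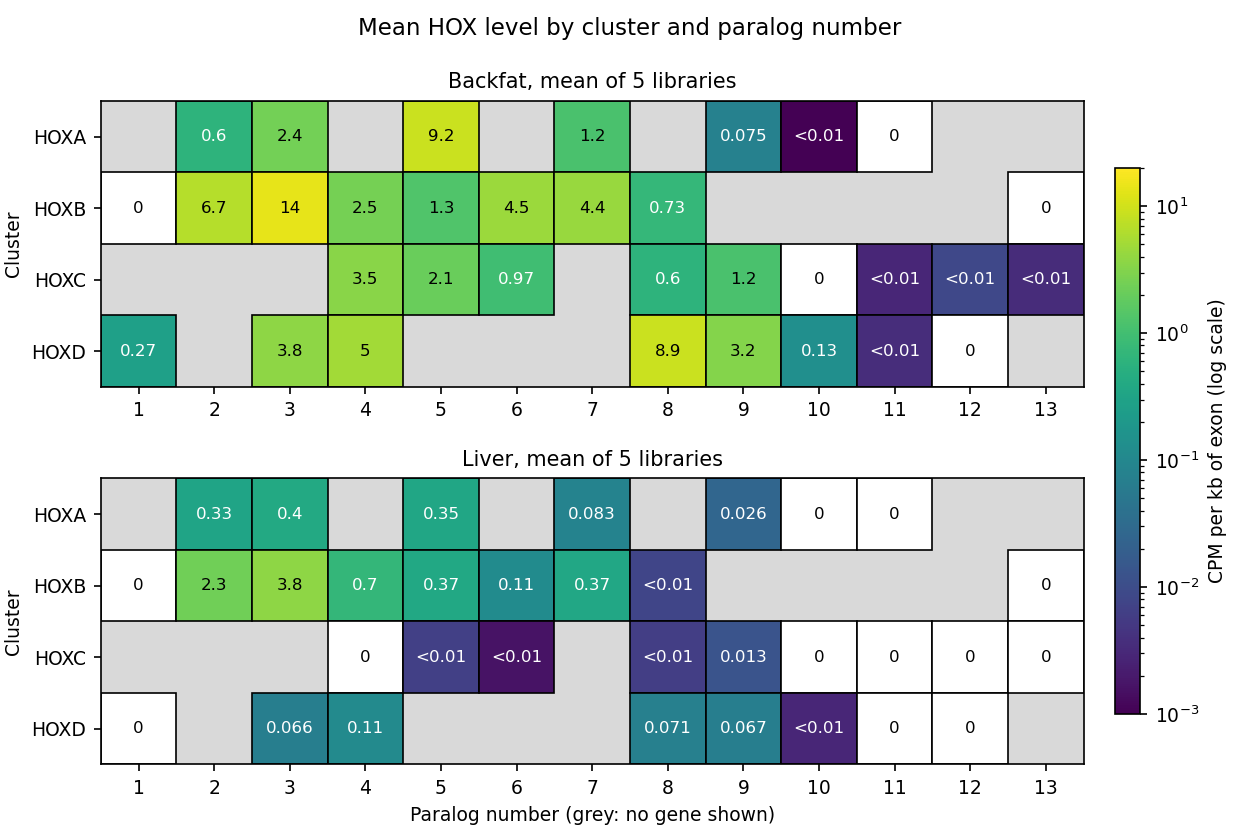
Mean level of HOX genes (CPM per kb of exon, log colour scale, value in each cell) by cluster (rows) and paralog number (columns) in backfat (above) and liver (below), n = 5 libraries each. Grey cells have no gene shown and white cells had no reads. HOXB3 leads in backfat at 13.7 and levels beyond number 9 are near or at 0, while in liver the levels above 1 were those of HOXB2 and HOXB3.

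The difference between the tissues was tested with the quasi-likelihood test of edgeR across 16275 genes, and a call required both an adjusted p not above 0.05 and a log2 difference of 2 or more. Of the 34 members, 21 had enough reads to be tested. Called higher in backfat were 15 of the 21 (71.4%), beside 11.1% of all genes tested, and 0 of 21 were called higher in liver, beside 11.2%. All 21 fitted differences were toward backfat, so that 0 were higher in liver at an unadjusted p under 0.05 as well, and DESeq2 and limma-voom also called 0. Without the fold limit 20 of the 21 passed, beside 28% of all genes, the exception being HOXA2. Every backfat library lay above every liver library for 18 of the 21, beside 22.9% of all genes. The median log2 fold change of the 21 was 5.56, or 5.53 with the 2 genes without liver reads at their lower bound, and that of all genes tested was 0.00014.

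These counts are a description, because the filter on low counts (about 0.205 CPM in 5 libraries) shaped them. Of the 21 tested, 14 were below that minimum in at least 1 liver library and so passed through backfat, 13 of the 15 called among them. The 7 that were at or above it in every library of both tissues were HOXA2, HOXA3, HOXA5, HOXB2, HOXB3, HOXB4 and HOXB5. Of these, 2 were called, HOXA3 and HOXA5. The alternative fit with a minimum of 10 counts per library left the same 7 to test and called the same 2. Of all 13026 genes in that fit, 871 were called higher in backfat.

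**Figure D2:**
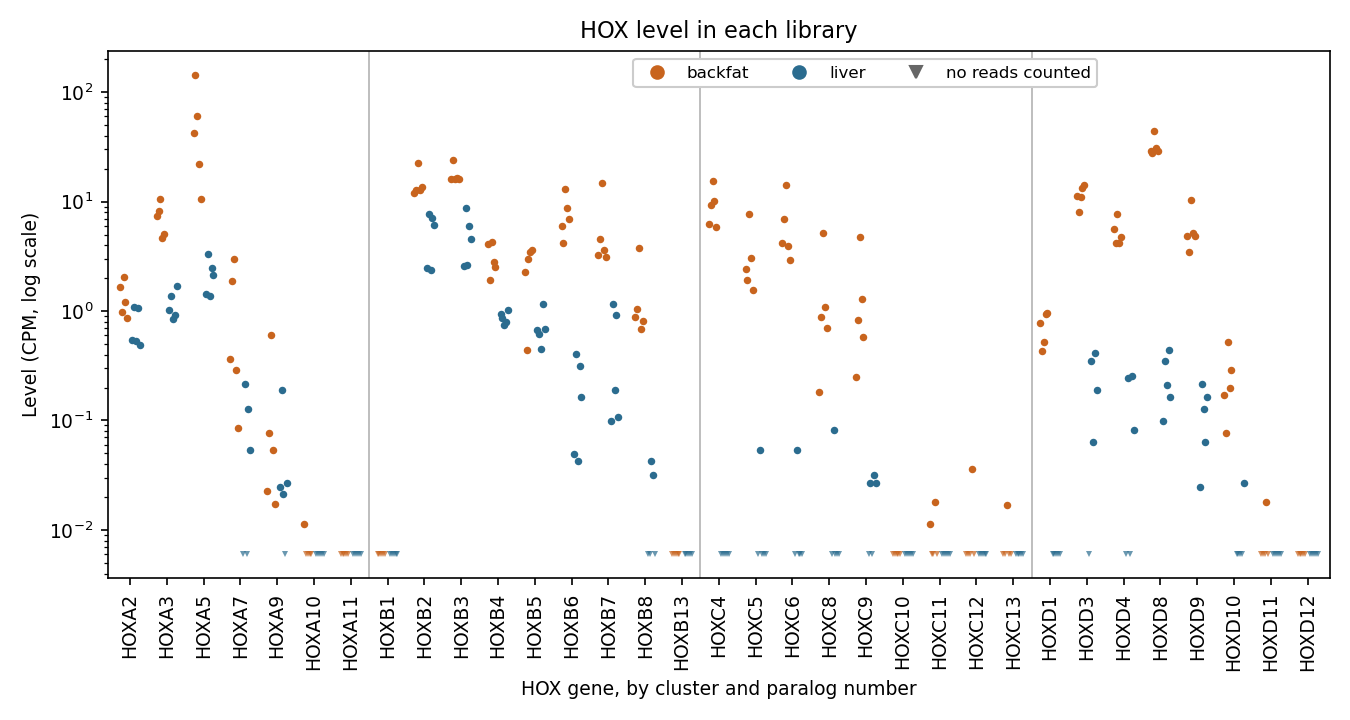
Level of HOX genes in each library (CPM, log axis), 5 backfat libraries (orange) and 5 livers (blue), with triangles at the bottom for libraries without reads. Backfat points lie above all liver points for most genes with reads, HOXA5 in backfat spreads from 10.6 to 144 CPM, and the genes numbered 10 to 13 lie at or near the bottom in both tissues.

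In the HOXA cluster 4 of 8 members were tested and 2 were called, beside 11.1% of all genes tested. HOXA2, which patterns the hindbrain and its neural crest, was low in both tissues. It measured 1.67, 0.976, 2.04, 1.21 and 0.858 CPM in backfat and 0.549, 1.08, 0.531, 1.07 and 0.488 CPM in liver. The groups overlapped, and the log2 fold change of 0.86 ± 0.38 (SE, edgeR adjusted p = 0.0718) did not pass.

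HOXA3, which patterns the pharyngeal region that gives the thymus and parathyroid, measured 7.39, 8.18, 10.5, 4.61 and 5.04 CPM in backfat and 1.02, 1.38, 0.849, 0.916 and 1.68 CPM in liver. The tissues did not overlap, and HOXA3 was higher in backfat by 2.61 ± 0.32 (log2, SE, edgeR adjusted p = 1.78e-05). HOXA5, a gene of lung and upper thoracic development that is also studied in fat cells, measured 42.1, 144, 61.1, 22.1 and 10.6 CPM in backfat and 1.42, 3.32, 1.36, 2.50 and 2.12 CPM in liver. It was higher in backfat by 4.71 ± 0.65 (edgeR adjusted p = 5.16e-05), and its range in backfat was the widest of the 21 tested members in CPM. Without backfat 67 its backfat mean fell from 56.0 to 34.0 CPM and its log2 fold change was 3.998. The RefSeq model of HOXA3 runs across that of HOXA5, the counting used no strand, and the exon length of 6070 bases that the table gives HOXA5 exceeds its RefSeq span of 3033 bases, so that the division of reads between these neighbours and the per-length level of HOXA5 are uncertain.

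HOXA7, a gene of the trunk, had 32, 123, 177, 16 and 5 counts in backfat and 0, 8, 0, 4 and 2 in liver, and was not tested; it was called higher in backfat under alternatives that let it be tested, DESeq2 among them. HOXA9 was counted at 2, 5, 36, 3 and 1 in backfat and at 1, 7, 1, 0 and 1 in liver. For both genes the highest library of each tissue was backfat 69 and liver 67, and the tissues overlapped. HOXA10 had 1 count in all 10 libraries and HOXA11 had 0.

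The HOXB cluster held most of the HOX RNA of the liver. HOXB2 to HOXB7 had reads in every liver. HOXB2 to HOXB5 were higher in backfat by less than the fold limit, though all 4 were called with library size alone, and HOXB6, HOXB7 and HOXB8 were called. HOXB2, a gene of the hindbrain, measured 12.02, 12.6, 22.4, 12.9 and 13.6 CPM in backfat and 2.47, 7.78, 2.38, 7.01 and 6.05 CPM in liver. HOXB3, its neighbour in the same region of the embryo, measured 16.1, 23.8, 16.03, 16.6 and 16.1 CPM in backfat and 2.59, 8.72, 2.65, 5.94 and 4.56 CPM in liver. Neither gene's tissues overlapped, and within the liver both were lowest in the pair of libraries 65 and 69. The log2 fold changes were 1.52 ± 0.35 for HOXB2 (SE, edgeR adjusted p = 0.00296) and 1.86 ± 0.32 for HOXB3 (adjusted p = 0.000367).

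HOXB4, also known as a regulator of blood stem cells, measured 4.06, 1.94, 4.26, 2.79 and 2.54 CPM in backfat and 0.948, 0.864, 0.743, 0.790 and 1.03 CPM in liver. HOXB5 measured 2.29, 0.442, 2.98, 3.48 and 3.603 CPM in backfat and 0.673, 0.621, 0.446, 1.17 and 0.678 CPM in liver. HOXB4 was the steadiest member in liver and its tissues did not overlap, whereas the HOXB5 level of backfat 67 was just below that of the lowest liver. The log2 fold changes were 1.83 ± 0.30 for HOXB4 (SE, edgeR adjusted p = 0.000222) and 1.84 ± 0.50 for HOXB5 (adjusted p = 0.00759). HOXB3 and HOXB5 lay near the fold limit: HOXB3 was called without liver 67 (log2 fold change 2.14) and HOXB5 without backfat 67 (2.12) or without liver 71 (2.05).

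HOXB6, HOXB7 and HOXB8 act in the trunk of the embryo. HOXB6 measured 6.03, 4.23, 12.95, 8.67 and 6.95 CPM in backfat and 0.0499, 0.405, 0.0425, 0.316 and 0.163 CPM in liver. HOXB7 measured 3.26, 4.53, 14.7, 3.62 and 3.14 CPM in backfat and 0.0997, 1.16, 0.191, 0.916 and 0.108 CPM in liver. HOXB8 measured 0.880, 1.05, 3.77, 0.685 and 0.806 CPM in backfat, and in liver it had 3 counts, of which 2 were in liver 69 and 1 in liver 71. Backfat 69 was the highest backfat library for all 3 genes and no tissue overlap was seen. The log2 fold changes were 5.34 ± 0.59 for HOXB6 (SE, edgeR adjusted p = 7.9e-06), 3.57 ± 0.75 for HOXB7 (adjusted p = 0.00149) and 6.34 ± 0.86 for HOXB8 (adjusted p = 4.78e-05). On counts alone the HOXB8 ratio was 89.5, with an exact 95% counting interval of 30.4 to 435. Without backfat 69 the log2 fold change of HOXB7 was 2.89 and that of HOXB8 was 5.596, and without liver 69 that of HOXB8 was 7.27. HOXB1, the hindbrain gene at the head end of the cluster, and HOXB13, the gene of the prostate and tail region at its other end, had 0 counts in all libraries.

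**Figure D3:**
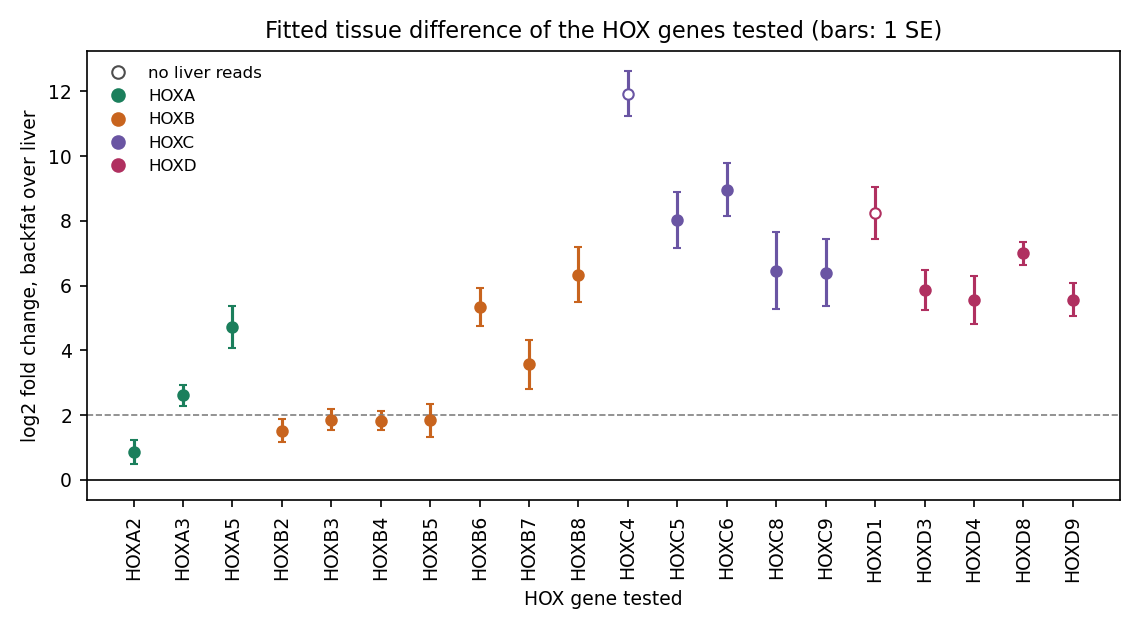
Fitted log2 fold change of backfat over liver (points, edgeR) with 1 SE (bars) for tested HOX genes, coloured by cluster, with open points for the 2 genes without liver reads, whose fitted values are not bounds. The dashed line marks the fold limit of 2. HOXA2 and HOXB2 to HOXB5 lie below it, and all HOXC and HOXD genes shown lie above 5.

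HOXC was the cluster with the least RNA in liver. Its level summed to 8.29 ± 5.69 CPM per kb in backfat and 0.0274 ± 0.0380 CPM per kb in liver (SD, n = 5 each), or 0.0112 CPM per kb in liver without liver 67. All 5 members tested, of 9, were called, beside 11.1% of all genes tested. Like those of HOXD, they passed the filter on low counts through backfat, so that their count is a description. HOXC4, at the head end of the cluster, measured 6.21, 9.32, 15.3, 10.04 and 5.90 CPM in backfat and had 0 counts in every liver. HOXC5 measured 2.41, 1.91, 7.74, 3.05 and 1.54 CPM in backfat and had 2 counts in liver, both in liver 67. HOXC6, a gene of the thoracic region, measured 4.14, 6.88, 14.2, 3.93 and 2.92 CPM in backfat and likewise had 2 liver counts, both in liver 67. Against a floor of 3 counts over the 5 livers, HOXC4 was at least 583-fold higher in backfat. The ratios on counts were 311 for HOXC5 (exact 95% counting interval 85.99 to 2575) and 604 for HOXC6 (167 to 4993).

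HOXC8, a trunk gene that is studied as a repressor of the brown fat programme, measured 0.180, 0.885, 5.13, 1.08 and 0.703 CPM in backfat and had 3 liver counts, all in liver 67. HOXC9, used as a marker of white fat cells, measured 0.248, 0.824, 4.76, 1.28 and 0.583 CPM in backfat and had 3 liver counts, 1 each in livers 67, 71 and 72. Both genes were several times higher in backfat 69 than in any other backfat library. By edgeR the log2 fold changes were 8.02 ± 0.87 for HOXC5 (SE, adjusted p = 6.81e-06), 8.97 ± 0.83 for HOXC6 (1.82e-06), 6.46 ± 1.19 for HOXC8 (0.000542) and 6.40 ± 1.04 for HOXC9 (0.000199), and the adjusted p of HOXC4 was 1.43e-06. On counts the ratio was 94.2 for HOXC8 (exact 95% counting interval 32.04 to 458) and 91.0 for HOXC9 (31.0 to 443). These values rested in part on 1 library: without backfat 69 the log2 fold change was 5.30 for HOXC8 and 5.33 for HOXC9, and without liver 67 it was 10.46 for HOXC5, 11.41 for HOXC6 and 9.38 for HOXC8, where no liver reads remained and the fitted value depends on the prior count. All of these stayed called.

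The HOXC reads stopped between neighbours. HOXC9 had 464 counts in backfat, while HOXC10, the next gene on the side of the higher numbers, had 0 counts in all 10 libraries. HOXC10 is a gene of the lumbar region that is used as a marker of some subcutaneous fat depots in humans. HOXC11 and HOXC12 had 2 counts each and HOXC13 had 1, all in backfat. The 250 bases before the RefSeq start of HOXC9 on Sscrofa11.1 (chr5:19212240-19212489, plus strand) are shown because HOXC9 was the last gene of the cluster with reads beyond 2 counts, and the capitals mark the CG dinucleotides.
HOXC9: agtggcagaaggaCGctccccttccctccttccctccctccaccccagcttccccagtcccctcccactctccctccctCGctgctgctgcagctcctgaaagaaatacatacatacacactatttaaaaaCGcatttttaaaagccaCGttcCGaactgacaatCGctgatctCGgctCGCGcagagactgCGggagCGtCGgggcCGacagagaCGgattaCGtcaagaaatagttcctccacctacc
The window held 15 CG. Over the 32 members with a RefSeq model the median was 11 CG (0 to 38), beside 12 over the 19569 protein-coding genes with a window of the same length.

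In the HOXD cluster all 5 members tested, of 8, were called, beside 11.1% of all genes tested. These 5 passed the filter on low counts through backfat, so that their count is a description. HOXD1, of the same paralog number as the hindbrain gene HOXB1, measured 0.778, 0.427, 0.521, 0.937 and 0.961 CPM in backfat and had 0 counts in every liver. With liver set to the floor of 3 counts, HOXD1 was higher in backfat at least 46.3-fold (edgeR adjusted p = 3.58e-05). HOXD1 was 1 of the 5 tested members for which backfat 69 was not the highest backfat library. HOXD3 and HOXD4 followed, both of which pattern the neck skeleton. HOXD3 measured 11.3, 8.09, 11.1, 13.4 and 14.1 CPM in backfat and 0, 0.351, 0.0637, 0.411 and 0.190 CPM in liver. HOXD4 measured 5.58, 4.18, 7.67, 4.22 and 4.79 CPM in backfat and 0, 0.243, 0, 0.253 and 0.0814 CPM in liver. The lowest backfat library was well above the highest liver for both, with log2 fold changes of 5.87 ± 0.61 for HOXD3 (SE, edgeR adjusted p = 5.07e-06) and 5.56 ± 0.74 for HOXD4 (adjusted p = 4.02e-05).

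HOXD8, a trunk gene, was the HOXD member with the highest level per length. It measured 28.8, 27.9, 44.2, 30.7 and 29.1 CPM in backfat and 0.0997, 0.351, 0.212, 0.442 and 0.163 CPM in liver. HOXD9, which acts in the lower trunk and the limbs, measured 4.84, 3.45, 10.4, 5.15 and 4.89 CPM in backfat and 0.0249, 0.216, 0.127, 0.0632 and 0.163 CPM in liver. The log2 fold changes were 7.00 ± 0.35 for HOXD8 (SE, edgeR adjusted p = 1.53e-08), the lowest p of any member, and 5.56 ± 0.51 for HOXD9 (adjusted p = 1.75e-06). HOXD10, a limb gene, had 15, 5, 31, 11 and 17 counts in backfat and 1 count in liver, in liver 72. It was not tested, though DESeq2 and the edgeR fit without a filter on low counts called it, and its ratio on counts was 46.5 with an exact 95% counting interval of 8.11 to 1860. RefSeq models of HOXD10 and HOXD11 overlap that of HOXD9, so that the division of reads among them is uncertain. HOXD11 had 1 count, in backfat 71, and HOXD12 had 0.

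The 10 members with paralog numbers 10 to 13 were close to absent from both tissues. HOXA13 and HOXD13 are not among them, since they were not analysed. These 10 members had 86 counts in backfat and 1 in liver, out of 64471 and 3292 counts for all HOX members. HOXD10 made up 79 of the 86, and the other 9 members had 7 counts over all 10 libraries. For a gene without reads, 3 counts correspond to 0.0338 to 0.0541 CPM in a backfat library and 0.0637 to 0.0948 CPM in a liver. These values were taken as a bound on the level of such a gene at this depth. They are not a limit of detection, since HOXD9 had 1 count in liver 65, or 0.0249 CPM. Intervals and floors cover counting error only.

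Called members were spread over the paralog numbers as follows. Of the 8 members numbered 1 to 3, 7 were tested and 3 called (HOXA3, HOXD1 and HOXD3), with a median log2 fold change of 1.86. Of the 13 numbered 4 to 8, 12 were tested and 10 called, with a median of 5.95. Of the 13 numbered 9 to 13, 2 were tested and both were called, HOXC9 and HOXD9. By cluster the medians were 1.86 over 7 genes for HOXB, 8.02 over 5 for HOXC and 5.87 over 5 for HOXD, the last being 5.56 with HOXD1 at its bound. Over all genes tested, 11.1% were called higher in backfat. All called members except HOXA3 and HOXA5 passed the filter on low counts through backfat, which shaped these counts and medians. Whether these groups differ from each other was not tested.

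The make-up of the HOX RNA differed between the tissues in ways that scaling between libraries does not touch, since shares are taken within a library. HOXB made up 44.4% ± 4.7 of the summed level per length in backfat and 81.2% ± 2.1 in liver (SD, n = 5 each), with ranges of 38.2 to 50.2% and 77.8 to 83.2%. HOXD made up 28.5% ± 6.0 in backfat and 2.98% ± 1.4 in liver, and HOXC 10.02% ± 3.8 and 0.207% ± 0.25. For these 3 clusters the tissues did not overlap. HOXA had a like share in both, at 17.1% ± 10.6 in backfat, where it ranged from 7.44 to 34.5% with the HOXA5 level, and 15.6% ± 3.1 in liver.

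By paralog number, numbers 1 to 3 made up 37.6% ± 6.3 of the summed level in backfat and 75.1% ± 2.5 in liver. Numbers 4 to 8 made up 56.7% ± 5.5 in backfat and 23.8% ± 2.9 in liver. Numbers 9 to 13 made up 5.72% ± 2.1 and 1.11% ± 0.57. The tissues did not overlap for any of the 3 groups. The shares, by cluster and by number, depend on the exon lengths of the annotation, that of HOXA5 included. They also leave out HOXA4, HOXA6, HOXA13 and HOXD13, which were not analysed.

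**Figure D4:**
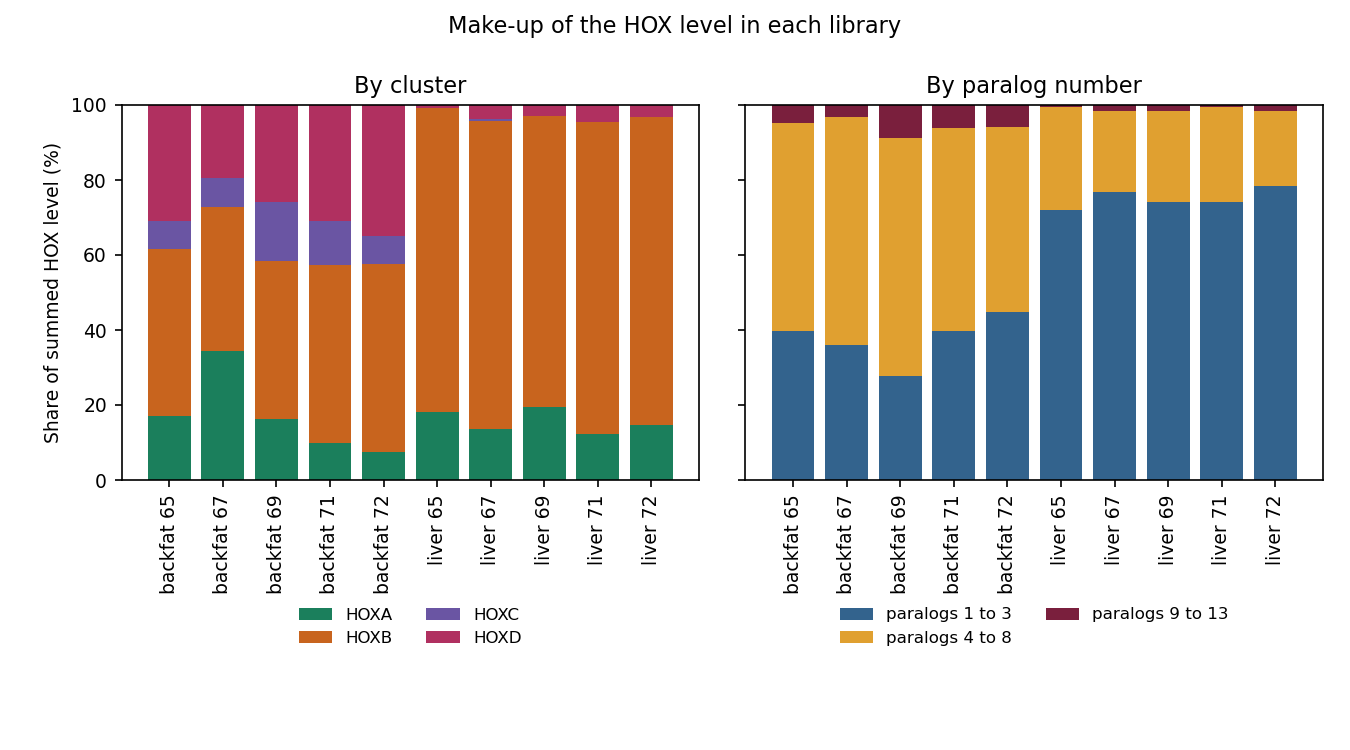
Share of the summed HOX level per length (%, stacked bars) in each of 5 backfat and 5 liver libraries, by cluster (left) and by paralog number (right). HOXB fills 77.8 to 83.2% of each liver bar and 38.2 to 50.2% of each backfat bar, and numbers 1 to 3 fill 72.0 to 78.3% of each liver bar and 27.7 to 44.7% of each backfat bar.

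Within backfat, library 69 was highest for 16 of the 21 tested members, 10 of the 12 numbered 4 to 8 and both numbered 9 to 13 among them. Over all genes tested it was the highest backfat library for 29.5%, and over all genes called higher in backfat for 30.04%. Its HOX level summed to 114 CPM per kb against 58.4 to 84.6 in the other backfats, and numbers 1 to 3 had their lowest backfat share there, 27.7%. Backfat 67 was highest for HOXA5 and HOXB3, where over all genes tested it was highest for 20.2%. It was lowest for 9 of the 21, a count that has no share over all genes beside it. Backfat 69 also had the highest mitochondrial share of counts in this tissue, 15.7% against 7.20 to 12.5% in the others. Marker sums moved among these libraries too: endothelial markers were 1134 CPM in backfat 69 and 666 to 1017 CPM in the others, smooth muscle and pericyte markers 936 and 527 to 662 CPM, and fibroblast and stromal markers 36482 and 46492 to 67724 CPM. This last sum was mostly COL1A1 and COL3A1, both lowest in backfat 69 at 13040 and 21474 CPM. PDGFRA (75.4 CPM against 54.5 to 63.9) and PI16 (25.6 against 10.1 to 17.6) were highest there. The other members of that list were neither highest nor lowest in backfat 69. Skeletal muscle markers ranged from 11.3 CPM in backfat 72 to 410 CPM in backfat 65, with 156 CPM in backfat 69, and MYF5 had 1 count, in backfat 69, over all libraries. The part of these values in the HOX levels was not tested.

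Within liver, library 67 was highest for 10 of the 19 tested members with liver reads, and over all genes tested it was the highest liver for 32.6%, and over all genes called higher in backfat for 50.8%. The HOX level summed to 5.36, 15.1, 5.34, 11.9 and 9.31 CPM per kb in livers 65, 67, 69, 71 and 72, and the mitochondrial share of counts was 6.97, 44.5, 6.38, 20.2 and 11.9%. The livers thus had the same order in both. Scaled by library size alone, the sums were 4.90, 10.9, 4.68, 7.73 and 7.08 CPM per kb, again in that order. In liver 67 hepatocyte markers summed to 31646 CPM against 106306 to 123512 CPM in the other livers, skeletal muscle markers to 171 CPM against 0.474 to 1.55 CPM, and smooth muscle and pericyte markers to 354 CPM against 128 to 201 CPM. Red cell markers summed to 1790 CPM there against 72.2 to 378 CPM, and lymphocyte markers to 46.3 CPM against 14.8 to 27.2 CPM. The part of these differences in the liver HOX reads was not tested. With both backfat 69 and liver 67 left out, 16 HOX genes were called, the same 15 and HOXB3.

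The tissues also differed in markers of cells in which HOX genes are commonly active. Fibroblast and stromal markers summed to 36482 to 67724 CPM in backfat and 815 to 1175 CPM in liver, with 6 of 8 called higher in backfat and 1, DPP4, higher in liver. Of 5 endothelial markers tested 4 were called higher in backfat, and of 6 smooth muscle and pericyte markers 2, beside 11.1% of all genes. Without the fold limit all 5 and all 6 passed toward backfat, beside 28%. Skin epithelium markers summed to 6.11 to 7.79 CPM in backfat and 9.96 to 22.5 CPM in liver, with KRT1 at 3 counts in backfat 69 and 0 in the other libraries. This sum was mostly KRT10 (means of 6.62 CPM in backfat and 9.21 CPM in liver, not called) and TP63 (0.0303 and 6.22 CPM, called higher in liver). It leaves out KRT5 and KRT14, which had no Ensembl symbol. The part of all these markers in the HOX difference was not tested.

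Genes that work with or upon HOX genes were described by the same calls, which took in 11.1% of all genes toward backfat and 11.2% toward liver. Whether these lists differ from the HOX genes or from all genes was not tested. Of the TALE class cofactors, which bind DNA together with HOX proteins, 7 were tested and edgeR called 0. At an unadjusted p under 0.05, 2 were higher in backfat and 3 in liver, and the same numbers passed the adjusted p without the fold limit, beside 28 and 27% of all genes. DESeq2 called 0 and limma-voom called 1 higher in backfat. MEIS2 was higher in backfat by a log2 fold change of 1.98 ± 0.26 (SE, edgeR adjusted p = 3.34e-05), and MEIS1 was lower there by -1.80 ± 0.26 (adjusted p = 7.31e-05), both within the fold limit. Of the Polycomb repressive complexes, which keep HOX clusters silent, 16 genes were tested and edgeR, DESeq2 and limma-voom each called 0. At an unadjusted p under 0.05, 4 were higher in backfat and 0 in liver, with EZH1 the largest at 1.68 ± 0.24 (edgeR adjusted p = 7.94e-05). Without the fold limit 4 of the 16 passed the adjusted p toward backfat and 0 toward liver, beside 28 and 27% of all genes. Of the trithorax and H3K27 demethylation genes, which act against Polycomb, 9 were tested and the 3 tools called 0, with 2 higher in backfat and 3 in liver at an unadjusted p under 0.05. Without the fold limit 1 of the 9 passed the adjusted p toward backfat and 3 toward liver, beside the same shares of all genes. The list medians were -0.52, 0.26 and 0.12, beside 0.00014 for all genes.

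Of the ParaHox and EVX genes, the homeobox relatives of the HOX clusters, CDX2 was the 1 tested, and it was called higher in liver. This regulator of the intestinal lining measured 0, 0.0458, 0, 0 and 0 CPM in backfat and 1.72, 0.702, 0.956, 1.33 and 2.33 CPM in liver, a log2 fold change of -6.92 ± 0.81 (SE, edgeR adjusted p = 1.42e-05). EVX1 and EVX2, which lie next to HOXA and HOXD, had no reads.

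The genes beyond the ends of the clusters leaned toward backfat by their median, and few of them passed the fold limit. Of the 40 RefSeq protein-coding genes that flank the clusters, 5 on each side, 31 had an Ensembl symbol and 28 were tested. Their median log2 fold change was 0.55 (-1.37 to 5.23), beside 0.00014 for all genes. Without the fold limit 14 of the 28 passed the adjusted p toward backfat and 2 toward liver, beside 28 and 27% of all genes. Called higher in backfat were 2 of the 28, beside 11.1% of all genes: JAZF1 (4.89 ± 0.40, SE, edgeR adjusted p = 6.49e-07) and CREB5 (5.23 ± 0.66, adjusted p = 2.65e-05), both on the HOXA side of high paralog numbers at 561422 and 1124009 bases from the cluster. By edgeR 0 were called higher in liver, and DESeq2 and limma-voom also called 2 toward backfat and 0 toward liver. At an unadjusted p under 0.05, 14 were higher in backfat and 2 in liver. SKAP2, the nearest tested gene at the other end of HOXA, had a log2 fold change of 0.64 ± 0.22 (adjusted p = 0.0261), and SKAP1, beside HOXB, one of -0.11 ± 0.34 (adjusted p = 0.809).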

How the data were processed

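RNA was sequenced as poly(A) libraries of 5 backfat and 5 liver samples. The authors trimmed reads, aligned them with HISAT2 to Sscrofa11.1 and counted fragments per gene with featureCounts (exons, without strand, Ensembl genes), and deposited raw counts, which were used as deposited. Files on the bisulfite libraries held read-position summaries and were not used here. Columns were assigned to tissues by name. Replicate numbers of the labels could not be matched to the numbers in the column names, and p-values measure the spread between these samples.

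All genes passing filterByExpr (minimum count 10) were fitted in edgeR 4.0.16 (R 4.3.3) by the quasi-likelihood test on tissue with TMM factors, with Benjamini-Hochberg adjustment over 16275 genes. Both tissues came from 5 boars by the study's methods and share the 5 column numbers, which were taken to pair the samples. Same-numbered libraries deviated together with correlations of 0.238, 0.107, 0.049, 0.165 and 0.0984, each above those with other numbers except for number 69 (0.131). The study's methods state no block, and the block was run as an alternative. The SE is the log2 fold change divided by the root of F. DESeq2 1.42.0 and limma 3.58.1 (voom) were alternatives. Tested on simulated data were the reported fit and those with DESeq2 size factors, library size alone, no filter, the block, DESeq2 and limma-voom. The fits with a minimum of 10 counts, without mitochondrial genes or with libraries left out were not simulated. Genes were compared per kb of the table's exon length. Markers and gene lists, all named in the report or by their counts, and the members were chosen with earlier results of these data known. The lowest and highest correlation of log CPM within a tissue was 0.960 and 0.987 in backfat and 0.920 and 0.985 in liver, so no library was a copy of another. Sequences were read from RefSeq on Sscrofa11.1. Values of 1 HOX member and some sequences are not reported here. The text names the other HOX members, and of other lists those called or nearest to a call, some of them chosen after their values were seen. Adipocyte markers (8 of 8 higher in backfat), hepatocyte markers (8 of 8 higher in liver), lymphocyte markers (5 tested, edgeR called 0, 3 higher in liver at an unadjusted p under 0.05, other tools 0), macrophage markers (5 tested, 2 higher in liver), red cell markers (4 tested, 0 by all tools, 0 at an unadjusted p under 0.05), skeletal muscle markers (4 tested, edgeR called 0, 0 at an unadjusted p under 0.05, limma-voom 4 higher in backfat and DESeq2 1 higher in liver), skin epithelium markers (2 tested, 1 higher in liver) and 1 mesothelium marker, WT1, which was not tested, completed the marker lists. DESeq2 tested a wider set of genes (22017), so that its liver call need not be among the 4 skeletal muscle markers tested by edgeR. The edgeR log2 fold changes of those 4 were all toward backfat (0.82 to 2.43).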

Additional observations from a re-analysis of the deposited data

Results flagged for a closer look

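Among the tested HOX genes and the summed levels, 1 library lay far from the other 4 of its tissue in 16 of 56 groups of 5 libraries, where chance gives about 1 in 20 for a normal spread. Over all genes tested, the highest library stood apart in 7.75% of genes in backfat and 9.34% in liver. Of the 16, 11 had backfat 69 as the highest backfat library: HOXB2 at 22.4 CPM, HOXB7 at 14.7 CPM, HOXB8 at 3.77 CPM, HOXC5 at 7.74 CPM, HOXC8 at 5.13 CPM, HOXC9 at 4.76 CPM, HOXD8 at 44.2 CPM and HOXD9 at 10.4 CPM, and the sums of HOXB at 47.98, of HOXC at 18.2 and of numbers 9 to 13 at 10.07 CPM per kb. These are not independent, since the sums hold the same genes. Over all genes tested, backfat 69 stood apart as the highest in 3.90%. HOXB3 was apart in backfat 67, at 23.8 CPM.

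Liver 67 stood apart for HOXC5 at 0.0540 CPM, HOXC6 at 0.0540 CPM, HOXC8 at 0.0810 CPM and the HOXC sum at 0.0923 CPM per kb. The first 3 of these are 2 or 3 counts where the other livers had 0, and a group of this kind always meets the rule. Over all genes tested, liver 67 stood apart as the highest liver in 7.67%, and over genes called higher in backfat in 12.5%. The cause was not tested.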

How the results depend on the processing

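The 15 HOX genes called higher in backfat were called under every alternative except a minimum of 10 counts in every library, which left 7 HOX genes to test and 2 called. Leaving out 1 library gave 15 to 18 called, library size alone 20, no filter 17, DESeq2 17 and limma-voom 16. HOXA7 and HOXD10, untested in the reported fit, were the genes added without a filter and by DESeq2, and limma-voom added HOXB3. With the boar number as a replicate block the same 15 HOX genes were called and no HOX call changed, and over all genes 1913 were called higher in backfat and 1757 in liver. No HOX gene changed sign. Over all genes, library size alone moved the median log2 fold change to 0.71 and called 2874 higher in backfat. The minimum of 10 counts left 13026 genes to test and called 871 higher in backfat and 981 in liver. No filter called 2729 higher in liver, and adjusted p alone called 4557 higher in backfat and 4398 in liver. Leaving out 1 library called 1817 to 2127 higher in backfat and 1837 to 1942 in liver. Of 385 refits of single HOX genes 375 kept their side of the threshold and 10 were newly called. The summed HOX level was 8.23 times higher in backfat with TMM, 14.1 times with library size alone and 19.0 times in TPM; library size alone was chosen for the sums, and leaving out backfat 69 and liver 67 together was chosen, after seeing the data. Depth limits the genes with 0 to 3 counts.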
